A study of Mus musculus with 12 samples.

Results

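The enzymes that write, copy and erase 5-methylcytosine were examined in G1-phase mouse embryonic stem cells (ESCs). They were chosen by gene symbol, and all 9 were found among the 24881 genes of the deposited expression table. They comprise the maintenance methyltransferase *Dnmt1* and its recruitment factor *Uhrf1*, the de novo methyltransferases *Dnmt3a* and *Dnmt3b* with their catalytically inactive partner *Dnmt3l*, the dioxygenases *Tet1*, *Tet2* and *Tet3*, and the glycosylase *Tdg*. All 9 passed the expression filter, a mean of at least 0.5 FPKM (fragments per kilobase of transcript, scaled to the mapped fragments of each library), as did 12572 genes in all. RNA from cells sorted for G1 was sequenced in 4 groups of 2 libraries, namely WT and P53-/- ESCs grown in serum and the same genotypes grown in 2i. The cells were R1 ESCs that carry the FUCCI cell cycle reporter. P53 was deleted with CRISPR/Cas9, and 2 of the P53-/- clones were used for RNA-seq, although the columns of the table do not say which clone gave which library. ESCs in 2i medium receive inhibitors of MEK and GSK3, whereas those in serum do not, and both media contain LIF. A further 4 samples of the series, P21 knockout and WT ESCs in 2i, were not analysed here.

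DNA methylation at CpG sites is copied after replication when UHRF1 binds hemimethylated DNA and brings in DNMT1. New methylation is laid down by DNMT3A and DNMT3B, which DNMT3L stimulates in ESCs and germ cells. TET enzymes oxidise 5-methylcytosine, the oxidised base is either lost through replication or, in its most oxidised forms, cut out by TDG, and base excision repair then restores cytosine. ESCs in serum are known for a heavily methylated genome and ESCs in 2i for a hypomethylated one. The comparisons below ask how the RNA of this machinery differed between the culture media and between WT and P53-/- cells.

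The genes lie on 7 chromosomes of GRCm38, a build other than the mm9 build named in the submitters' processing notes, so the positions here come from the GENCODE annotation and not from the table. *Dnmt1* lies on the minus strand of chromosome 9 (20907209 to 20959888), *Uhrf1* on the plus strand of chromosome 17 (56303321 to 56323486) and *Dnmt3a* on the plus strand of chromosome 12 (3806007 to 3914443). *Dnmt3b* lies on the plus strand of chromosome 2 (153649450 to 153687730). *Tet2* is on the minus strand of chromosome 3 (133463679 to 133545139), and *Tet3* on the minus strand of chromosome 6 (83362373 to 83459084). Chromosome 10 holds *Dnmt3l* (plus strand, 78041947 to 78063622), *Tet1* (minus strand, 62804570 to 62908996) and *Tdg* (plus strand, 82629828 to 82650799).

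RefSeq promoter windows of GRCm38.p6, from 250 bases before to 50 bases after each annotated start, were found for all 9 genes, 16 windows in all. CpG content set these promoters apart from each other. The window of *Tet2* held 57 CpGs, more than 99.8% of the 32851 windows of all genes, and those at the upstream starts of *Dnmt3a* held 46 and 47. The remaining *Dnmt3a* window, further downstream, held 18 CpGs, more than 70.3% of all windows. The 3 windows of *Dnmt3l* held 6, 4 and 3, against a median of 7 over all windows. RNA of *Dnmt3b*, *Dnmt3l* and *Tet1* fell in 2i while that of *Uhrf1* moved the other way, and their windows differ in CpG content. Which starts these cells used was not tested. The 250 bases before an annotated start of each of these 4 genes are shown, with each CpG in capitals. They lie at chr2:153649199-153649448 (*Dnmt3b*, plus strand, 21 CpGs), chr10:78042037-78042286 (*Dnmt3l*, plus strand, first of 3 windows, 5 CpGs), chr10:62887325-62887574 (*Tet1*, minus strand, 15 CpGs) and chr17:56304063-56304312 (*Uhrf1*, plus strand, the second of 2 windows, 30 CpGs).
Dnmt3b: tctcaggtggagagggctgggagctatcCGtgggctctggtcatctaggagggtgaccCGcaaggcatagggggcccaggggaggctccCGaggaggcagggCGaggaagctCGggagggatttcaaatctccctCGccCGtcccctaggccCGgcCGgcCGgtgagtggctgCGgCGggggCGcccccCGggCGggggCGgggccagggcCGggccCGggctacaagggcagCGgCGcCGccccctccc
Dnmt3l: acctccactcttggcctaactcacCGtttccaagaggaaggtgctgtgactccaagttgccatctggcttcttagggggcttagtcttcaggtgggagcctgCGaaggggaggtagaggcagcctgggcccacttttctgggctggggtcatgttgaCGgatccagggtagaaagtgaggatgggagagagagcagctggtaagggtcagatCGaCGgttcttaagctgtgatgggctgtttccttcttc
Tet1: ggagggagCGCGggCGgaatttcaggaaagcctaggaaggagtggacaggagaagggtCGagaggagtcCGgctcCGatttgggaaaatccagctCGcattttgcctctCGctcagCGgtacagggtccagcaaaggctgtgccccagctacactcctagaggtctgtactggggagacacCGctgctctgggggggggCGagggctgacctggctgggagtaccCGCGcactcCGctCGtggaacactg
Uhrf1: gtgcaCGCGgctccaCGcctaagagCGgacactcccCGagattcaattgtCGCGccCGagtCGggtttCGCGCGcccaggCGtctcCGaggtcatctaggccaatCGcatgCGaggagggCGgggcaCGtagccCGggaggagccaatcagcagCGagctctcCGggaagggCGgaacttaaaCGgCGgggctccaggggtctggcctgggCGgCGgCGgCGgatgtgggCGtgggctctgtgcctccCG
In the full windows, the letters CCAAT were present on either strand in *Dnmt1* (the first and the third windows), both *Uhrf1* windows, *Tet3* and *Tdg*, against 37.4% of all windows. The E2F motif TTTGGCGC was present in the third *Dnmt1* window and in 0.514% of all windows, and TTTCCCGC, found in 1.07% of all windows, was in none of the 16. The motifs do not overlap one another in their letters, and a match describes these windows only.

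Several facts about the libraries precede the values. No label says whether the 2 libraries of a group came from separate cultures, so p-values measure the spread between these libraries only. Each library held an estimated 5100000 to 13000000 fragments, read from the smallest steps between FPKM values. Genes of small RNAs made up 96.3% to 97.9% of the summed FPKM in serum and 88.6% to 89.8% in 2i. The sum over all other genes ran from 599000 to 1660000 in serum and from 742000 to 794000 in 2i. Calls between cultures without small RNA genes and with other scalings are given below, and its part was not tested in any other way. *Cdkn1a*, the P53 target that encodes P21, was lower in P53-/- ESCs by 2.24 in 2i and 2.18 in serum on the log2 scale (limma, adjusted p = 0.00218 and 0.00601). *Trp53* itself was at 77.6 and 75.1 FPKM in WT serum against 16.8 and 3.68 in P53-/- serum, and at 26.8 and 33.7 in WT 2i against 7.25 and 1.88 in P53-/- 2i, so RNA from the locus remained. The pluripotency factor *Pou5f1* was at 473 FPKM or more in every library. The Y-linked *Ddx3y*, *Eif2s3y* and *Uty* were at 0 in all 4 P53-/- libraries, and the summed level of 4 Y-linked genes was 2.17 in the first WT 2i library against 25.7 in the second and 14.9 to 17.2 in WT serum. The first WT 2i library therefore stood apart, and the values that it moves most are also given without it. Since every P53-/- library lacked Y-linked RNA and came from selected clones, a difference between genotypes cannot be told apart from one between clones or sublines.

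In serum, WT ESCs contained more *Uhrf1* RNA than any other of these mRNAs, followed by *Tet1*, *Dnmt3l*, *Dnmt1*, *Tet2*, *Dnmt3b*, *Dnmt3a*, *Tdg* and *Tet3*. Mean levels ran from 120 FPKM for *Uhrf1* to 1.06 FPKM for *Tet3*, and no neighbours in this order overlapped between libraries. The order in P53-/- serum ESCs was the same except that *Tet2* and *Dnmt1*, at means of 47.2 and 47.0 FPKM, exchanged places and overlapped. In WT 2i ESCs *Uhrf1* (161 FPKM) and *Dnmt1* (40.8 FPKM) led, then *Tet2*, *Tet1*, *Dnmt3l*, *Dnmt3b*, *Dnmt3a*, *Tdg* and *Tet3*, with overlap between *Tet1* and *Dnmt3l* and between *Dnmt3l* and *Dnmt3b*. *Dnmt3b* stood above *Dnmt3l* in P53-/- 2i ESCs, where no neighbours overlapped. *Tet3* and *Tdg* rested on few fragments, an estimated 25 to 130 and 16 to 200 in a library, whereas *Uhrf1* had an estimated 2900 to 9000. FPKM values are scaled per transcript length, which permits this ranking.

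**Figure D1:**
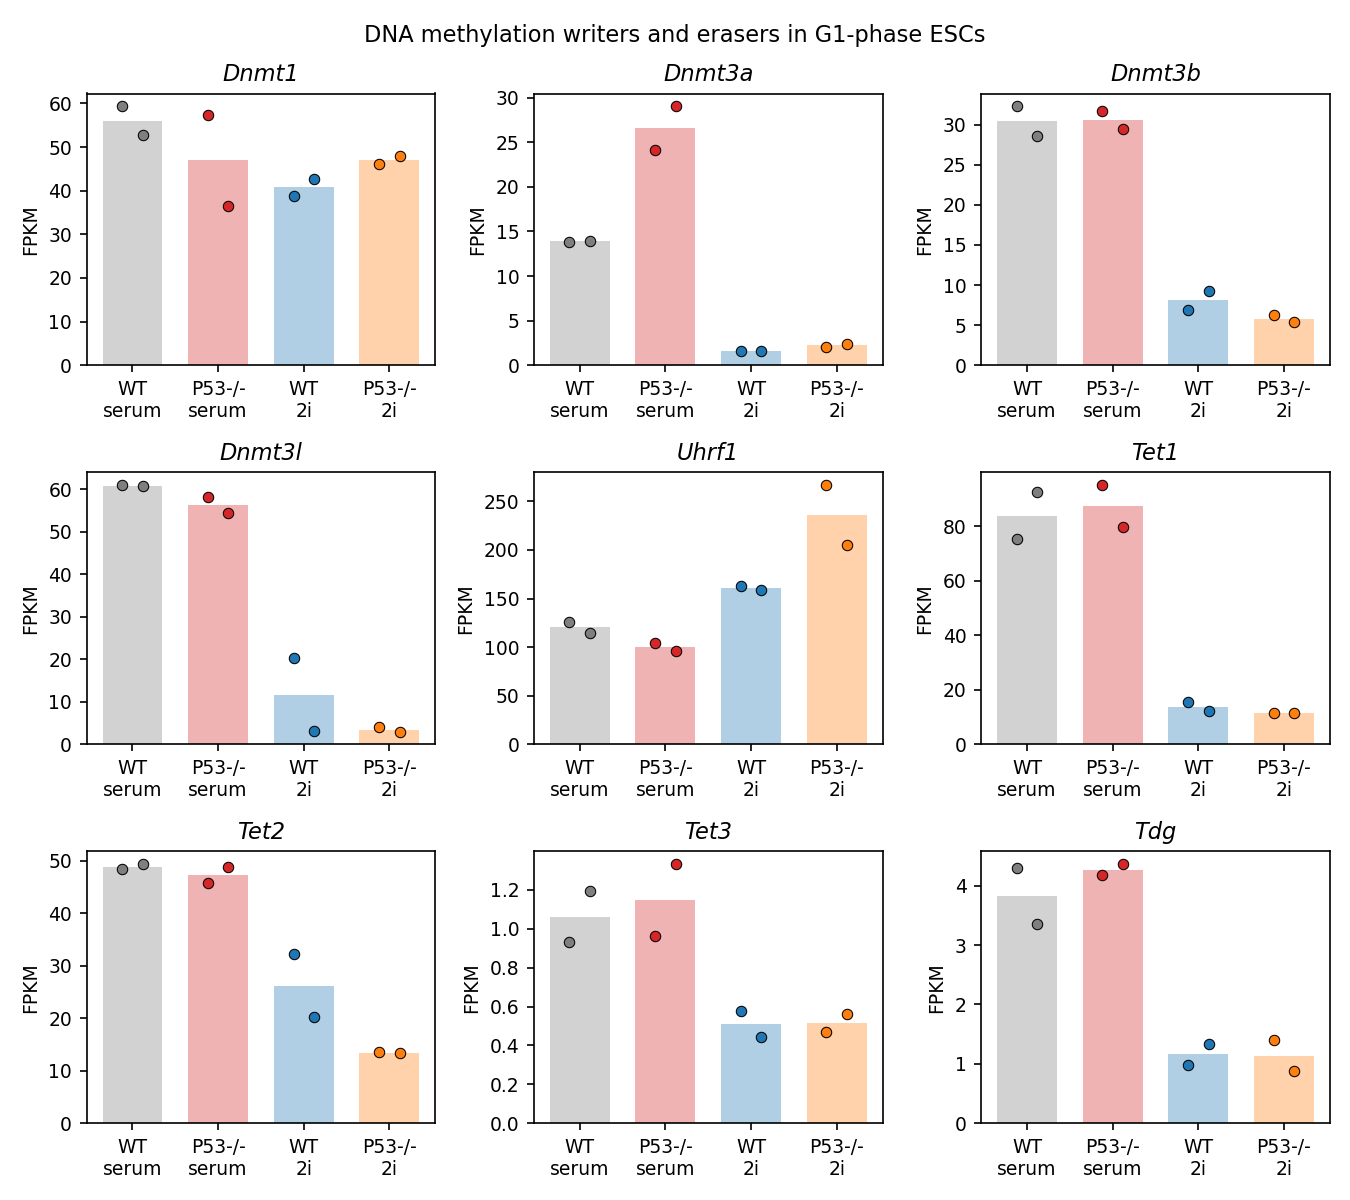
Expression of the 9 genes in each library (points, FPKM on a linear axis from 0) with the mean of each group of 2 (bars). *Dnmt3a*, *Dnmt3b*, *Dnmt3l*, *Tet1*, *Tet2*, *Tet3* and *Tdg* sit lower in all 2i libraries than in all serum libraries, *Uhrf1* sits higher in all 2i libraries, and the WT 2i values of *Dnmt3l* (20.2 and 2.99 FPKM) lie far apart.

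Between serum and 2i the de novo writers and the erasers fell together in WT ESCs. Of the 9 genes, 7 were lower in 2i at an adjusted p under 0.1 and a change of more than 1.5-fold, and none was higher. Across all genes tested 55.7% passed the same thresholds, 28.6% lower and 27.2% higher. The median log2 fold change of the 9 was -1.64, beside -0.02 for all genes tested. In P53-/- ESCs 8 of the 9 passed, 7 of them lower and *Uhrf1* higher, against 58.2% of all genes (30.1% lower and 28.0% higher). These comparisons of culture used separate libraries for each genotype. In such bulk samples fewer cells with a transcript and less RNA per cell cannot be told apart.

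Markers of other cell types also moved with culture. Of 9 fibroblast markers, *Col3a1* and *Postn* were at 0 in every library, and 2 were tested. Their sum was 10.2 to 11.9 FPKM in serum and 2.62 to 8.55 in 2i, and it was mostly *Thy1* in serum (7.55 to 10.5 FPKM, against 0.343 to 0.972 in 2i) and *Twist1* in 2i, where it reached 7.21. The sum of 9 endoderm markers, of which 3 were tested, was 22.5 to 36.8 FPKM in serum and 11.8 to 16.5 in 2i. Much of it was the laminin gene *Lama1*, at 9.5 to 16.6 FPKM in serum and 9.2 to 12.8 in 2i. The basement membrane collagen *Col4a1* went from 17.1 and 17.4 FPKM in WT serum to 1.94 and 0.756 in WT 2i. The endoderm factor *Gata4* was called the other way, from 0.83 and 0.614 FPKM in WT serum to 2.40 and 1.28 in WT 2i, and *Gata6* and *Sox17* were at most 0.397 and 1.09 FPKM. The sum of 8 trophoblast markers was 13.0 to 20.5 FPKM in serum and 65.5 to 131 in 2i. It rose with the keratins *Krt8*, from 4.77 and 6.31 FPKM in WT serum to 103 and 51.9 in WT 2i, and *Krt18*, from 4.92 and 3.52 to 16.1 and 10.7, and the factor *Tfap2c* was also called higher, from 7.06 and 6.78 to 8.71 and 12.7. *Eomes*, at most 2.53 FPKM, was called lower in P53-/- 2i than in P53-/- serum, and the trophoblast factors *Cdx2* and *Elf5* were at most 1.05 and 0.185 FPKM. The part of other cell types in the values of the 9 genes was not tested.

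Neither gene of the maintenance pair was called lower in 2i, whereas the de novo writers were. *Uhrf1* was at 126 and 115 FPKM in WT serum and 163 and 159 in WT 2i, and at 104 and 96.0 in P53-/- serum and 267 and 205 in P53-/- 2i. All 2i libraries were above all serum libraries. In WT ESCs the log2 fold change was 0.42 (SE 0.15, limma adjusted p = 0.0402), under the 1.5-fold threshold. In P53-/- ESCs *Uhrf1* rose 2.33-fold in 2i (log2 fold change 1.22, SE 0.15, limma adjusted p = 0.000287). *Dnmt1* was at 59.3 and 52.9 FPKM in WT serum, 38.8 and 42.8 in WT 2i, 57.4 and 36.6 in P53-/- serum and 46.2 and 47.9 in P53-/- 2i. Its WT groups did not overlap and its P53-/- groups did. The log2 fold change of *Dnmt1* was -0.46 in WT (95% confidence interval -0.92 to 0.01, limma adjusted p = 0.0818), which is under 1.5-fold, and 0.04 in P53-/- ESCs (-0.43 to 0.50).

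All of the de novo writers fell in 2i. *Dnmt3a* was at 13.8 and 14.0 FPKM in WT serum and 1.55 and 1.59 in WT 2i, and at 24.2 and 29.0 in P53-/- serum and 2.07 and 2.40 in P53-/- 2i. It fell 8.38-fold in WT (log2 fold change -3.07, SE 0.16, limma adjusted p = 1.89e-05) and 11.4-fold in P53-/- ESCs (log2 fold change -3.51, SE 0.16, limma adjusted p = 1.16e-05). *Dnmt3b* was at 32.3 and 28.7 FPKM in WT serum and 6.90 and 9.27 in WT 2i, and at 31.7 and 29.4 in P53-/- serum and 6.29 and 5.33 in P53-/- 2i. No 2i library reached a serum library. *Dnmt3b* fell 3.77-fold in WT and 5.20-fold in P53-/- ESCs (limma adjusted p = 9.42e-05 and 3.77e-05).

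*Dnmt3l*, the stimulating cofactor, was at 60.9 and 60.6 FPKM in WT serum against 58.2 and 54.3 in P53-/- serum. In 2i it was at 20.2 and 2.99 FPKM in WT and 3.95 and 2.76 in P53-/- ESCs. The 2 WT 2i libraries differed by an SD of 1.92 on the log2 scale, wider than for 99.3% of the genes tested, and the higher value belonged to the library with low Y-linked RNA. The log2 fold change of *Dnmt3l* between 2i and serum was -2.94 in WT (SE 0.71, limma adjusted p = 0.00819) and -4.05 in P53-/- ESCs (SE 0.71, limma adjusted p = 0.00167). The WT value was -4.3 without WT 2i library 1 and -1.58 without WT 2i library 2, and the call was kept in both (adjusted p = 0.000193 and 0.00154).

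*Dnmt3c*, a rodent paralogue that arose from *Dnmt3b*, lies next to it on chromosome 2, and the antisense transcript *Dnmt3bos* overlaps the start of *Dnmt3b*. Whether strand was used in counting is not given in the sources used here, so reads shared with these loci remain uncertain. *Dnmt3aos*, an antisense transcript within *Dnmt3a*, was listed at 0 in every library.

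Among the erasers *Tet1* changed most. It was at 75.4 and 92.4 FPKM in WT serum, 95 and 79.9 in P53-/- serum, 15.5 and 12.1 in WT 2i against 11.6 and 11.4 in P53-/- 2i. It fell 6.06-fold in WT and 7.51-fold in P53-/- ESCs (limma adjusted p = 3.12e-05 and 1.99e-05). *Tet2* was at 48.4 and 49.3 FPKM in WT serum and 32.1 and 20.1 in WT 2i, a 1.92-fold fall (log2 fold change -0.94, SE 0.20, limma adjusted p = 0.00469). The log2 fold change was -1.27 without WT 2i library 1 and -0.6 without WT 2i library 2, and was called in both (adjusted p = 0.000692 and 0.00683). In P53-/- ESCs *Tet2* went from 45.8 and 48.7 FPKM in serum to 13.5 and 13.3 in 2i, a 3.5-fold fall (limma adjusted p = 0.000184). Both TET genes were lower in every 2i library than in any serum library.

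*Tet3*, best known for its role in oocytes and neurons, was the lowest of the 9 in every group. It was at 0.932 and 1.19 FPKM in WT serum, 0.577 and 0.442 in WT 2i, 0.961 and 1.33 in P53-/- serum and 0.469 and 0.562 in P53-/- 2i. The log2 fold change was -0.93 in WT (SE 0.37, limma adjusted p = 0.0576) and -1.0 in P53-/- ESCs (SE 0.37, limma adjusted p = 0.0427). Its calls were lost with a pseudocount of 1, at log2 fold changes of -0.45 and -0.50. They were also lost without WT 2i library 2 or WT serum library 2 in WT (-0.77 in either case), and without P53-/- 2i library 1 (-0.90) or P53-/- serum library 2 (-0.79) in P53-/- ESCs.

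*Tdg*, which removes the oxidised bases, was at 4.31 and 3.35 FPKM in WT serum and 0.982 and 1.34 in WT 2i, and at 4.19 and 4.36 in P53-/- serum and 1.39 and 0.878 in P53-/- 2i. It fell 3.12-fold in WT and 3.62-fold in P53-/- ESCs (limma adjusted p = 0.0018 and 0.000897). The processed pseudogenes *Tdg-ps* and *Gm9855* could share reads with *Tdg*; *Gm9855* was at 0 to 0.692 FPKM.

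**Figure D2:**
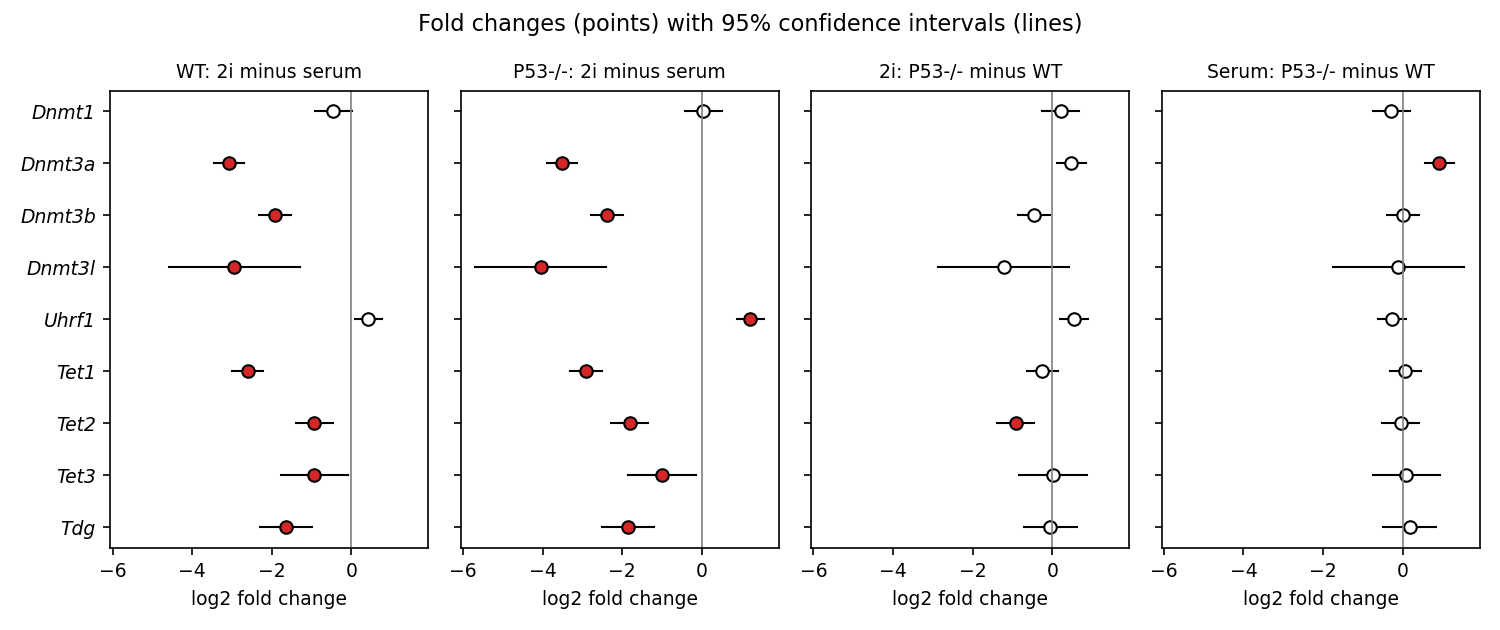
Log2 fold changes of log2(FPKM + 0.1) from limma (points) with 95% confidence intervals (lines) in 4 comparisons, filled in red where the adjusted p was under 0.1 and the change over 1.5-fold. The panels of 2i minus serum hold 7 and 8 filled points, whereas the panels of P53-/- minus WT hold 1 each, *Tet2* in 2i (-0.92) and *Dnmt3a* in serum (0.92).

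Transcript length moved with culture across all genes. Genes tested were split into 4 classes of equal size by their longest annotated transcript. In the class of the longest (4646 bases or more), the median log2 fold change between WT 2i and WT serum was -0.54, and 46.9% were called lower against 12.7% higher. In the class of the shortest (up to 2028 bases) the median was 0.37, with 17.4% lower and 38.1% higher. *Dnmt1*, *Dnmt3a*, *Tet1*, *Tet2* and *Tet3* belong to the class of the longest, *Dnmt3b*, *Uhrf1* and *Tdg* to the next and *Dnmt3l* to that of the shortest. The part of this trend in the falls listed above was not tested. Between genotypes in 2i the same order was seen at a smaller size, with a median of 0.05 in the class of the shortest and -0.02 in that of the longest, which holds *Tet2*. There 4.58% of the shortest and 7.21% of the longest were called lower.

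Because the genes fell by unlike amounts, the composition of the machinery differed between cultures. *Tet1* made up 62.6% ± 3.0 (SD, n = 2) of the summed TET FPKM in WT serum and 34.6% ± 3.5 (SD, n = 2) in WT 2i, while *Tet2* made up 36.6% ± 3.1 and 64.1% ± 3.6 (SD, n = 2). In every serum library *Tet1* exceeded *Tet2*, by 1.56 to 2.08 times, and in every 2i library *Tet2* exceeded *Tet1*, with *Tet1* to *Tet2* ratios of 0.481 to 0.862. In P53-/- 2i ESCs the *Tet1* share was 45.3% ± 0.28 (SD, n = 2), above both WT 2i libraries (32.1% and 37.1%). The summed TET level was 134 FPKM in WT serum, 136 in P53-/- serum, 40.4 in WT 2i and 25.4 in P53-/- 2i.

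RNA of the maintenance enzyme was higher relative to that of the de novo enzymes in 2i than in serum. The ratio of *Dnmt1* to the sum of *Dnmt3a* and *Dnmt3b* was 1.26 ± 0.033 in WT serum, 0.827 ± 0.28 in P53-/- serum, 4.26 ± 0.46 in WT 2i and 5.86 ± 0.47 in P53-/- 2i (mean ± SD, n = 2 each). The ratio of *Uhrf1* to *Dnmt1* was 2.14 ± 0.031, 2.22 ± 0.57, 3.95 ± 0.35 and 5.02 ± 1.0 in the same order. For both ratios every 2i library was above every serum library. *Dnmt3a* relative to *Dnmt3b* was higher in P53-/- than in WT ESCs in both cultures, at 0.874 ± 0.16 against 0.458 ± 0.042 in serum and 0.389 ± 0.085 against 0.198 ± 0.037 in 2i (mean ± SD, n = 2 each), with no overlap between libraries. With 2 libraries against 2, an exact permutation test of a single ratio cannot give a two-sided p below 0.33, so the ratios are given as values.

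**Figure D3:**
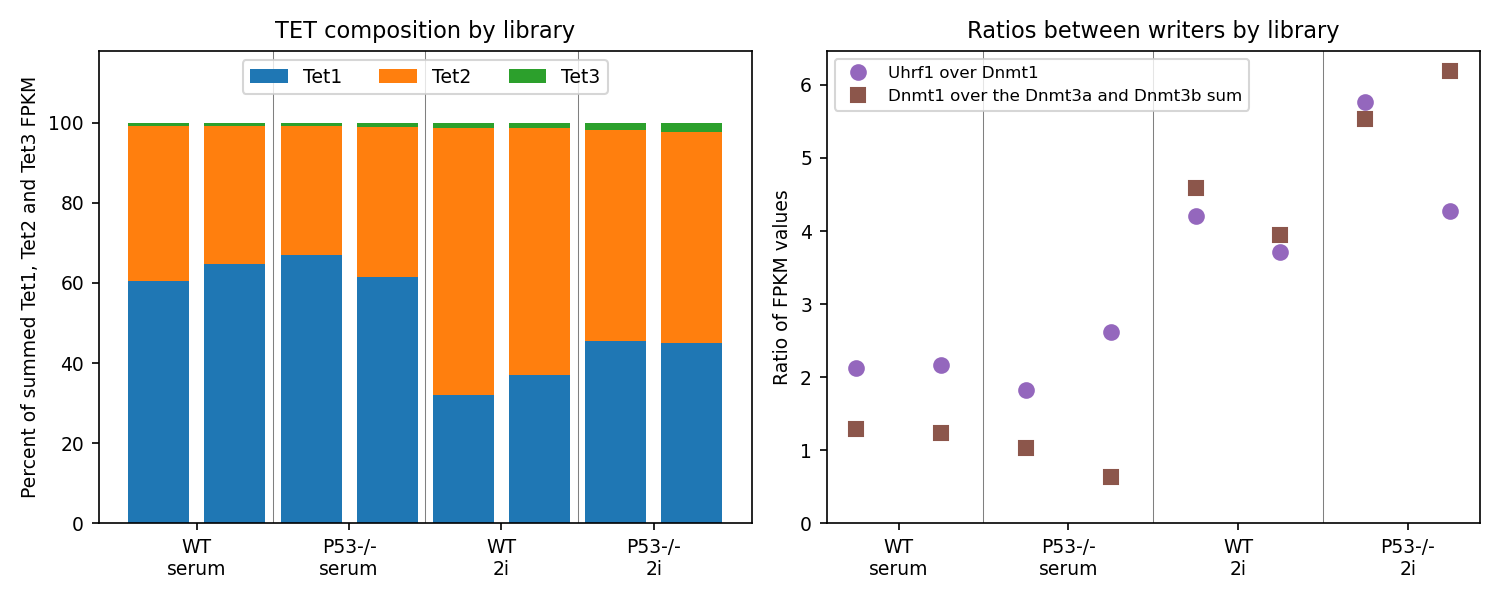
Left, the share of each TET gene in the summed FPKM of *Tet1*, *Tet2* and *Tet3* (percent, one bar per library); right, the ratio of *Uhrf1* to *Dnmt1* (circles) and of *Dnmt1* to the summed *Dnmt3a* and *Dnmt3b* (squares) per library, on a linear axis from 0. The *Tet1* share is 60.5% to 67.0% in serum and 32.1% to 45.5% in 2i, and both ratios are higher in all 2i libraries than in all serum libraries.

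Between P53-/- and WT 2i ESCs 1 of the 9 genes was called, *Tet2*, a share close to the 10.3% of all genes tested (5.97% lower and 4.36% higher). *Tet2* was at 32.1 and 20.1 FPKM in WT 2i against 13.5 and 13.3 in P53-/- 2i, so that both P53-/- libraries lay below both WT libraries. It was 1.89-fold lower in P53-/- 2i ESCs (log2 fold change -0.92, SE 0.20, 95% confidence interval -1.38 to -0.46, limma adjusted p = 0.0381). Without WT 2i library 1, which held the most *Tet2* of the 2i libraries, the log2 fold change was -0.58 and was no longer over 1.5-fold (adjusted p = 0.0571). The call was also lost, at log2 fold changes of -0.91 to -0.93, without P53-/- 2i library 1 (adjusted p = 0.128), P53-/- 2i library 2 (0.164) or WT serum library 1 (0.103), and in the fit of the 2i libraries alone (0.198). Markers of other cell types moved with this contrast as well. *Col4a1* was called lower, from 1.94 and 0.756 FPKM in the WT libraries to 0.0907 and 0.296 in those of P53-/- ESCs, and *Twist1* from 7.21 and 5.14 to 1.85 and 3.41. WT 2i library 1 held the most *Krt8* and *Gata4* of all libraries. Their part in the *Tet2* value was not tested.

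For *Dnmt3l* in 2i a single library decided the value. The log2 fold change between P53-/- and WT 2i ESCs was -1.22 (SE 0.71, 95% confidence interval -2.86 to 0.42, limma adjusted p = 0.332), and the groups overlapped. It was 0.14 without WT 2i library 1 (adjusted p = 0.761) and -2.58 without WT 2i library 2 (adjusted p = 0.0051).

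The other 7 genes were not called in 2i. *Uhrf1* was higher in both P53-/- 2i libraries than in both WT 2i libraries, with a log2 fold change of 0.54 (SE 0.15, limma adjusted p = 0.0726), a 1.45-fold difference and so under the fold threshold. It was 0.73 without P53-/- 2i library 2, where it passed (adjusted p = 0.0786), and 0.35 without P53-/- 2i library 1, the highest of all libraries. *Dnmt3a* and *Dnmt3b* went opposite ways without overlap between groups, at 0.48 (95% confidence interval 0.11 to 0.85, limma adjusted p = 0.113) and -0.46 (-0.86 to -0.06, limma adjusted p = 0.148). Either passed in 1 alternative, *Dnmt3a* with quantile normalization (0.65, adjusted p = 0.0563) and *Dnmt3b* without WT 2i library 1 (-0.67, adjusted p = 0.0797). Without WT 2i library 2 the value of *Dnmt3b* was -0.25 (adjusted p = 0.417). The intervals of the remaining genes spanned 0, from -0.26 to 0.67 for *Dnmt1*, -0.63 to 0.14 for *Tet1*, -0.83 to 0.87 for *Tet3* and -0.71 to 0.61 for *Tdg*. The libraries of 6 of the 9 genes did not overlap between genotypes, beside 53.6% of all genes.

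In serum the single call was *Dnmt3a*, and it was in the opposite direction to most calls of that comparison. *Dnmt3a* was at 13.8 and 14.0 FPKM in WT serum against 24.2 and 29.0 in P53-/- serum. It was 1.90-fold higher in P53-/- serum ESCs (log2 fold change 0.92, SE 0.16, 95% confidence interval 0.55 to 1.29, limma adjusted p = 0.0641). Across all genes 1.02% were called, 0.883% lower and 0.135% higher, the latter being 17 genes. The call was lost without WT serum library 1 (adjusted p = 0.438), WT serum library 2 (0.314), P53-/- serum library 2 (0.289, log2 fold change 0.79), P53-/- 2i library 1 (0.105) or P53-/- 2i library 2 (0.109). It was also lost in the fit of the serum libraries alone (0.197), with all genes above 0 kept (0.12) and without the trend of variance on level (0.1). The direction was kept in each of these, and the log2 fold change was 0.92 or 0.93 except where 0.79 is given.

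The other 8 genes were not called in serum. Their log2 fold changes ran from -0.29 (*Dnmt1*, 95% confidence interval -0.75 to 0.18) to 0.17 (*Tdg*, -0.50 to 0.83). The intervals of *Tet1* (-0.33 to 0.45), *Tet2* (-0.51 to 0.41) and *Dnmt3b* (-0.39 to 0.41) lay within 1.5-fold of no difference, whereas that of *Dnmt3l* (-1.75 to 1.53) did not. The model shares its variance over the 4 groups, so the width for *Dnmt3l* includes the spread between the WT 2i libraries (SD 1.92). Between the serum libraries of *Dnmt3l* the SD was only 0.0 for WT and 0.07 for P53-/- ESCs. The log2 fold change of *Uhrf1* was -0.26 (-0.61 to 0.08), with both P53-/- libraries below both WT libraries.

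The difference of the P53 effect between cultures was tested as an interaction, and limma called 0 of the 9 genes and 0.207% of all genes. At an unadjusted p under 0.05 there were 2 of 9, beside 13.1% of all genes. The P53 effect on *Uhrf1* was higher in 2i than in serum by 0.80 on the log2 scale (SE 0.21, limma adjusted p = 0.201). That on *Tet2* was lower by 0.87 (log2 difference -0.87, SE 0.28, limma adjusted p = 0.269). The differences of the other genes were 0.50 (*Dnmt1*), -0.45 (*Dnmt3a*), -0.47 (*Dnmt3b*), -1.11 (*Dnmt3l*), -0.31 (*Tet1*), -0.07 (*Tet3*) and -0.21 (*Tdg*). For *Tet2* this difference was -0.54 without WT 2i library 1 (adjusted p = 0.238) and -1.21 without WT 2i library 2, where it passed (adjusted p = 0.0935). For *Dnmt3l* it was 0.25 without WT 2i library 1 (adjusted p = 0.715) and -2.47 without WT 2i library 2 (adjusted p = 0.0492).

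The proteins that act with the maintenance pair were followed in a list of 12 genes. In WT ESCs 5 (4 lower and 1 higher) passed between 2i and serum, where 55.7% of all genes did. *Hells*, a chromatin remodeller needed for methylation, fell by 1.82 on the log2 scale, from 304 and 320 FPKM to 87.4 and 89.3 (limma adjusted p = 2.85e-05). *Uhrf2*, the paralogue of *Uhrf1*, fell by 1.18, the DNA ligase *Lig1* by 0.97 and the histone methyltransferase *Ehmt1* by 0.84 on the log2 scale (limma adjusted p = 0.0012, 0.0117 and 0.00102). The median of the list was -0.33.

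*Dppa3*, which encodes STELLA, a protein known to bind UHRF1 and displace it from chromatin, was the single gene of the 12 called higher in WT 2i. It was at 1.44 and 3.66 FPKM in WT serum, 3.54 and 4.07 in P53-/- serum, 28.1 and 31.5 in WT 2i against 397 and 446 in P53-/- 2i. Each 2i group was above the serum groups, and P53-/- 2i was far above WT 2i. *Dppa3* rose 12.4-fold in WT 2i (limma adjusted p = 0.000121) and was 14.1-fold higher in P53-/- than in WT 2i ESCs (log2 fold change 3.82, SE 0.35, limma adjusted p = 0.00158). Only 0.255% of the genes tested had a higher fold change in that comparison. In serum the log2 fold change between genotypes was 0.69 (95% confidence interval -0.12 to 1.51), and the interaction was 3.13 (SE 0.50, limma adjusted p = 0.101), just outside the threshold. Between genotypes in 2i 2 of the 12 were called, beside 10.3% of all genes, and the other was *Zfp57*, a zinc finger protein that protects imprints, which fell by 0.87 on the log2 scale, from 119 and 95.4 FPKM to 55.5 and 61.7 (limma adjusted p = 0.0204).

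Of 9 known regulators of the writers, 8 passed between WT 2i and WT serum, 6 lower and 2 higher, beside 55.7% of all genes (28.6% lower and 27.2% higher). *Prdm14*, a repressor of *Dnmt3b* and *Dnmt3l*, rose from 13.6 and 11.2 FPKM to 35.4 and 32.5 (log2 fold change 1.45, limma adjusted p = 0.000115), and *Dppa3* rose as given above. *Lin28a*, an RNA-binding protein, fell from 102 and 93.7 FPKM to 10.3 and 8.80 (log2 fold change -3.35, limma adjusted p = 4.98e-05). *Zfp281*, a transcription factor linked to *Dnmt3* genes, fell by 2.15 on the log2 scale. The histone H3K36 methyltransferases *Setd2* and *Nsd1*, whose marks recruit de novo methyltransferases, fell by 1.97 and 1.54 on the log2 scale. Between genotypes in 2i 2 of the 9 passed, beside 10.3% of all genes. They were *Dppa3* and *Lin28a*, and *Lin28a* fell by 0.91 on the log2 scale (limma adjusted p = 0.0708).

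Of 14 genes of base excision repair and the Gadd45 family, 5 were higher and 3 lower in WT 2i than in WT serum, a share near the 55.7% of all genes. *Gadd45g* and *Gadd45b*, stress-response genes implicated in demethylation, rose by 2.72 and 2.37 on the log2 scale while *Gadd45a* fell by 1.27. The glycosylases *Smug1* and *Neil2* rose by 1.01 each, and *Neil3* fell by 1.31. In 2i, 3 passed between genotypes, beside 10.3% of all genes. *Gadd45b* was at 29.2 and 26.5 FPKM in WT and 44.9 and 45.3 in P53-/- ESCs (log2 fold change 0.70, limma adjusted p = 0.0629). *Neil3* was higher by 1.17 and *Apex1*, the abasic site endonuclease, lower (log2 fold change -0.63), with limma adjusted p of 0.0923 and 0.0885.

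The TET partners and the enzymes that supply 2-oxoglutarate and the methyl donor were in a list of 9, of which 8 were tested. In WT 2i 3 rose and 2 fell, a share near that of all genes. *Idh1*, a dehydrogenase that makes 2-oxoglutarate, went from 67.1 and 66.2 FPKM to 297 and 239, and *Idh2*, its mitochondrial counterpart, from 33.3 and 31.3 to 131 and 116 (log2 fold changes 2.00 and 1.92, limma adjusted p = 4.82e-05 and 0.000116). *Ahcy*, which clears S-adenosylhomocysteine, rose by 0.66. *Mat2a*, which makes the methyl donor S-adenosylmethionine, fell by 1.18, and the TET1 partner *Sin3a* fell by 1.47 on the log2 scale. None of the 8 was called by limma between genotypes in 2i, where 3 were under 0.05 before adjustment, as were 25.2% of all genes. Of the methyl-CpG readers 7 of 8 were tested, and 3 fell in WT 2i, where 28.6% of all genes did. They were *Mbd3* (log2 fold change -1.45), *Zbtb33* (-1.15) and *Mbd4* (-0.59). Between genotypes in 2i limma called none of the 7, and 1 had an unadjusted p under 0.05, against that 25.2%.

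**Figure D4:**
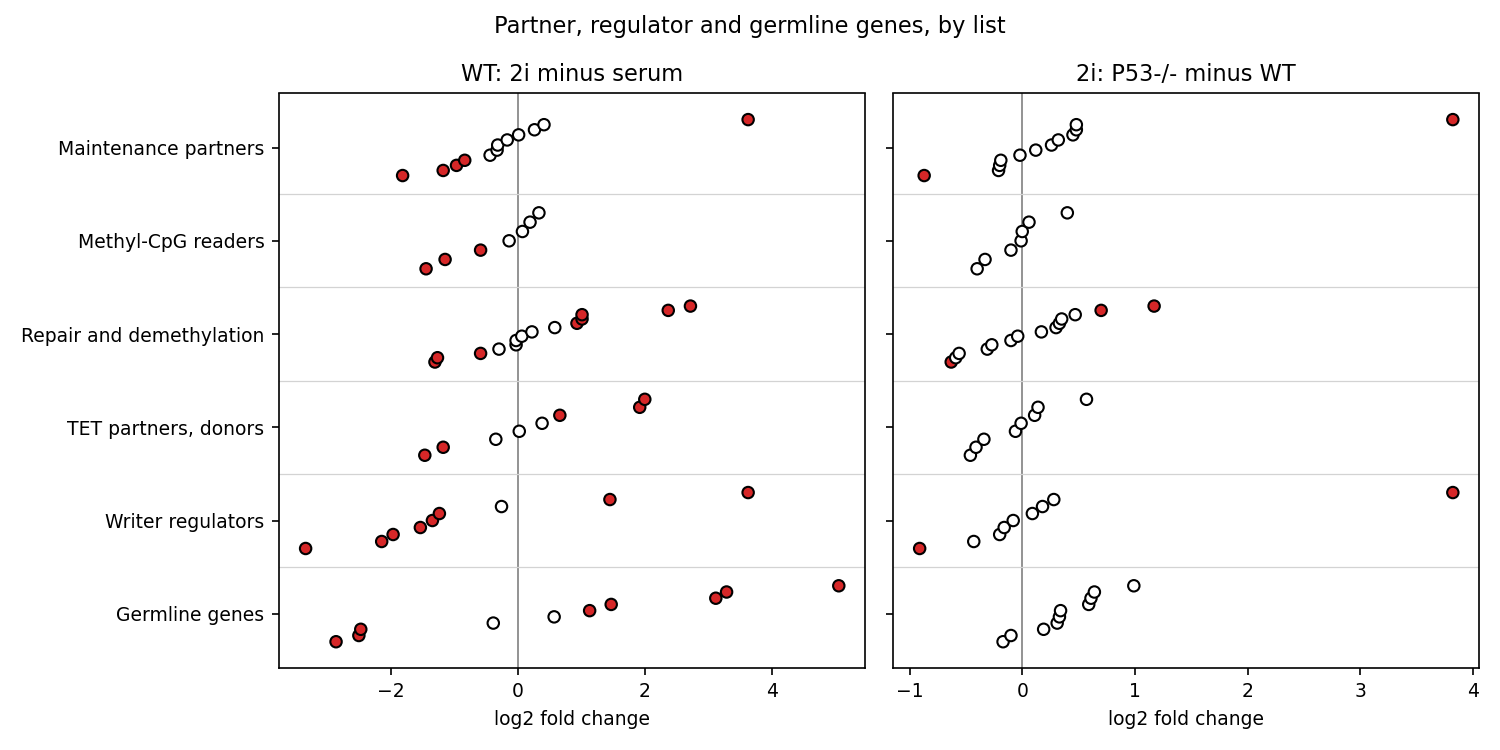
Log2 fold changes of genes in 6 lists around the methylation machinery (one point per gene, red where called by limma) between WT 2i and WT serum (left) and between P53-/- and WT ESCs in 2i (right), on axes of different range. *Dppa3*, shown in the maintenance and regulator lists, is at 3.63 and 3.82, while in the right panel the other points lie between -0.91 and 1.17.

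Germline genes that DNA methylation is known to silence in somatic cells were also followed, although methylation itself was not measured here. Of 10, 8 passed between WT 2i and WT serum, 5 higher and 3 lower, where 27.2% of all genes were called higher and 28.6% lower. *Dazl*, a germ cell RNA-binding protein, rose from 4.14 and 5.66 FPKM to 41.4 and 44.3, and *Tex101*, a germ cell surface protein, rose from 0.0809 and 0.155 FPKM to 3.29 and 1.20. *Asz1*, a piRNA pathway gene, was at 0.0452 and 0.0855 FPKM in WT serum and 4.55 and 6.38 in WT 2i. By contrast the germ cell genes *Mael*, *Ddx4* and *Tdrkh* fell by 2.87, 2.51 and 2.48 on the log2 scale. Between genotypes in 2i limma called none of the 10, and none had an unadjusted p under 0.05, against 25.2% of all genes.

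In serum, where *Dnmt3a* was higher in P53-/- ESCs, limma also called none of the 10 germline genes, but 5 had an unadjusted p under 0.05, beside 11.3% of all genes, and all 5 had higher levels in P53-/- ESCs. For 9 of the 10 both P53-/- serum libraries were above both WT serum libraries, beside 25.7% of all genes. The list was chosen with earlier results of these data known, so these shares are a description only. *Ddx4* was at 11.9 and 11.8 FPKM in WT serum against 21.5 and 19.6 in P53-/- serum (log2 fold change 0.79, limma adjusted p = 0.12), and *Taf7l* at 1.57 and 1.59 against 4.6 and 3.77 (1.34, limma adjusted p = 0.124). The median log2 fold change of the list was 1.18, beside 0.02 for all genes. The mean log2(FPKM + 0.1) of the list was 2.24 and 2.92 in P53-/- serum and 1.31 and 1.55 in WT serum. *Asz1* was at 0.0969 and 2.38 FPKM against 0.0452 and 0.0855. Of 6 formative markers tested, 5 were higher and 1 lower in P53-/- serum without overlap. The sum of 9 endoderm markers was 22.5 to 28.5 FPKM against 36.4 to 36.8 in WT serum. The part of these markers in the germline values was not tested.

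Since *Dnmt1* and *Uhrf1* are transcribed with the cell cycle, 20 S-phase genes were counted beside them. In WT 2i 7 were lower and 1 higher than in WT serum, a smaller share than the 55.7% of all genes called, with a median of -0.09. Between genotypes in 2i 1 of the 20 was called, beside 10.3% of all genes. It was *Ccne2*, the cyclin E2 gene, which rose by 0.83 on the log2 scale, and the median was 0.17 beside 0.02 for all genes. The part of cell cycle composition in the *Uhrf1* values was not tested.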

How the data were processed

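RNA from G1-sorted ESCs was depleted of rRNA, reverse-transcribed with random primers and sequenced. The authors deposited 1 table of FPKM values per gene symbol for 8 libraries in 4 groups, and the submitters' processing notes name STAR, Cufflinks, DESeq2 and mm9 without versions. Column headers give the group but no replicate number, so libraries are numbered in column order.

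From these values log2(FPKM + 0.1) was fitted with limma 3.58.1 in R 4.3.3, for genes with a mean of at least 0.5 FPKM, in 1 model of the 4 groups with a trend of variance on level. P-values were adjusted by Benjamini-Hochberg over 12572 genes, and calls required both an adjusted p under 0.1 and a change over 1.5-fold, the thresholds of the study. Fold changes are on the log2(FPKM + 0.1) scale and understate those of low genes. On simulated data for P53-/- against WT in 2i (12246 genes), 87.5% of the 200 genes given a log2 change of 2 were recovered, with 20 false calls. Smaller changes, such as the -0.92 of *Tet2* in that comparison, were not simulated. Depth, and with it the fragments behind a gene, was estimated from the smallest FPKM steps and the longest annotated transcript and is approximate; no counts were tested. GENCODE M21 gave positions and transcript lengths, and RefSeq gave promoters.

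The genes and lists were chosen with earlier results of these data known. All 9 genes are named in every comparison. From the lists of partners, readers, repair genes, TET partners and regulators, called members are named, up to 6 a list by size of change, with counts for the rest; germline genes, *Ccne2* and the markers named beside results were named after their values were seen. In all, 5 comparisons were made, with 10 alternative settings and each of 8 libraries left out in turn.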

Additional observations from a re-analysis of the deposited data

Results flagged for a closer look

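*Uhrf1* is listed because its P53-/- libraries lay on opposite sides of the WT libraries in the 2 cultures, although neither difference was called. Both P53-/- 2i libraries (267 and 205 FPKM) were above both WT 2i libraries (163 and 159), and both P53-/- serum libraries (104 and 96.0) were below both WT serum libraries (126 and 115). The log2 fold changes were 0.54 (95% confidence interval 0.19 to 0.89) and -0.26 (-0.61 to 0.08), and the difference between them was 0.80 (SE 0.21, 95% confidence interval 0.31 to 1.29). With a library left out the 2i value ran from 0.35 to 0.73. The difference did not pass the correction over all genes in limma (adjusted p = 0.201).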

How the results depend on the processing

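No paired analysis was possible because the columns carry no replicate numbers. The 7 and 8 calls among the 9 genes between 2i and serum changed by less than 1.5 times in every alternative. They were 7 in WT and 8 in P53-/- ESCs without small RNA genes and with median-ratio scaling, and 8 in each with quantile normalization. Between genotypes, genes called in 2i went from 1299 to 193 in a fit of only the groups compared, 771 at an adjusted p under 0.05 and 495 to 1259 with a library left out; in serum they went from 128 to 37, 73 and 63 to 168. For the difference between cultures 26 became 66 with a pseudocount of 1, 40 without the variance trend, 16 at an adjusted p under 0.05 and 22 to 74 with a library left out. Of the 9 genes, those called between genotypes in 2i were 2 with quantile normalization, 0 in the fit of only the groups compared and 0 to 2 with a library left out. In serum they were 0 with all genes above 0 kept, 0 in the fit of only the groups compared, 0 without the trend, 0 at an adjusted p under 0.05 and 0 to 1 with a library left out; for the difference between cultures they were 0 to 2. Log2 fold changes that turned direction were small: *Dnmt3b* in serum (-0.01 with median-ratio scaling and -0.02 with quantile normalization) and, with quantile normalization, *Tdg* in 2i (0.11) and the culture difference of *Tet3* (0.19). With a library left out, ranges that crossed 0 were, for *Dnmt1*, -0.29 to 0.36 (2i against serum in P53-/-) and -0.61 to 0.04 (genotypes in serum); for *Dnmt3b*, -0.08 to 0.09 (serum); for *Dnmt3l*, -2.58 to 0.14 (2i) and -2.47 to 0.25 (difference); for *Tet1*, -0.09 to 0.21 (serum); for *Tet3*, -0.14 to 0.18 (2i), -0.12 to 0.31 (serum) and -0.29 to 0.14 (difference); and for *Tdg*, -0.35 to 0.26 (2i), -0.01 to 0.34 (serum) and -0.52 to 0.09 (difference). *Uhrf1* between WT 2i and WT serum was called with quantile normalization (0.61). A group left with 1 library was assumed to vary like the others, *Tet3* has no value at a mean FPKM of at least 1, and the fit of only the groups compared equals the reported one for the difference. The causes of these changes were not tested. The 2 libraries a group and the few fragments of *Tet3* and *Tdg* limit what could be detected.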

Other observations

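Of 9 ESC and naive pluripotency markers, 2 were called between P53-/- and WT 2i ESCs, both lower, beside 10.3% of all genes. The other 7, *Pou5f1*, *Sox2* and *Nanog* among them, were not. Without overlap between groups, 6 of the 9 were lower in P53-/- 2i and 0 higher, beside 53.6% of all genes in either direction. The median log2 fold change was -0.32, beside 0.02 for all genes. *Klf4* went from 48.2 and 48.3 FPKM to 23.2 and 26.3, and *Tbx3* from 25.9 and 20.9 to 15.1 and 14.4. Of 6 formative markers tested, *Foxd3*, a forkhead factor, was called lower in 2i, at 17.4 and 18.1 FPKM in WT and 6.7 and 6.96 in P53-/- ESCs. In serum limma called none of these 9 and 6 genes between genotypes, and 1 and 2 of them had an unadjusted p under 0.05, where 1.02% of all genes were called and 11.3% had such a p.

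The genes whose pattern over the 8 libraries was most like that of each enzyme were found by Pearson's r of log2 values among 8129 genes with a mean of at least 5 FPKM. They are a description, since the libraries fall into 2 cultures and 2032 genes had an r above 0.9 with *Tet1*. The first match was *Cnep1r1* for *Dnmt3a*, *Srek1* for *Dnmt3b*, *Ubqln4* for *Dnmt3l*, *Pprc1* for *Tet1*, *Dcbld1* for *Tet2*, *Ppa2* for *Tet3*, *Akap12* for *Tdg* and *Vta1* for *Uhrf1*, each at an r of 0.99 or more. *Dnmt1* had 6 genes above 0.9, led by *Timm29* and *Xrcc6*.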
